A study of Mus musculus with 48 samples.

Results

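The lungs of B6 (C57BL/6J) mice were compared 16 weeks after the last exposure to stainless steel welding fume (gas metal arc-stainless steel, GMA-SS) and 16 weeks after the phosphate buffered saline vehicle (sham), by strain, recovery time and exposure as labelled. These were 8 of the 48 arrays of the series, 4 GMA-SS and 4 sham. The other 40 arrays held B6 lungs after mild steel fume (GMA-MS), lungs of the A/J strain, and the same 6 groups at 4 weeks. All mice were male and were bought at 4 weeks of age. They received 4 pharyngeal aspirations under brief isoflurane anesthesia, of 5 mg/kg fume in saline or of saline alone in the sham groups. Total RNA of whole lung homogenates was hybridized to MouseRef-8 v1.1 beadchips, and values are log2 intensities after background correction and quantile normalization. One replicate number stands for 1 beadchip, each of which carried 1 array of every group of the time point. On all 4 beadchips GMA-SS lay at 1 position and sham at another, so group and position on the beadchip cannot be told apart. The sources used here do not say that each array was a different mouse, so the p-values measure the spread between these arrays.

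Stainless steel fume differs from mild steel fume in carrying chromium and nickel beside iron and manganese. Particles that reach the alveoli are taken up by macrophages, whose chemokines and cytokines draw neutrophils and monocytes from the blood. Neutrophils are rich in mRNA for calprotectin, granule enzymes and the receptors for granulocyte colony-stimulating factor and CXC chemokines, and in whole lung RNA these genes trace the cells.

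The tissue markers fitted the label. The surfactant gene Sftpc lay at 15.34, 15.22, 15.24 and 15.21 in GMA-SS lungs, against 15.41, 15.21, 15.14 and 15.25 in sham lungs. Of 11881 probes tested, 10408 had 1 gene name (8710 genes), and GMA-SS arrays detected 10637 to 11406 probes and sham arrays 11262 to 11567. RNA of other tissue varied between lungs. The squamous keratin Krt13 was 14.22, 10.84, 7.01 and 13.51 in GMA-SS lungs and 13.44, 8.41, 13.40 and 12.60 in sham lungs. The skeletal muscle actin Acta1 was 14.67, 14.23, 7.92 and 14.47 in GMA-SS lungs and 14.44, 12.93, 13.65 and 13.70 in sham lungs. Array 3 of GMA-SS held little of either, and Krt13 was also low on array 2 of both groups.

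No probe passed the threshold between GMA-SS and sham lungs after adjustment over all probes (limma, 0% called, smallest adjusted p = 0.2593), while 829 probes (6.98%) had an unadjusted p under 0.05 where 594 are expected by chance. Among the named genes past the cutoff given next, the largest differences were those of receptors and enzymes of neutrophils (Mmp9, Csf3r, Cxcr2, Clec4d), the clock repressor Nr1d1, the monocyte chemokine Ccl12 and the natriuretic peptide clearance receptor Npr3, all higher in GMA-SS lungs by 1.45 to 1.63 fold, and Erdr1, Akr1c14 and the chaperone gene Dnajb1, lower at 0.59 to 0.72 fold. The study's gene lists rested on a cutoff of fold and p, and its methods do not say that the p was unadjusted. At a change of at least 1.3 fold with an unadjusted p under 0.05, the cutoff used here, 36 probes differed (0.303%), of which 27 were higher (0.227%) and 9 were lower (0.0758%). Of the 27, 9 carried no gene name. Without GMA-SS array 3 the count was 17, and 4 of the 36 (Npr3, Mmp9, Nr1d1 and Erdr1) met the cutoff in each alternative that gave them a value, leaving out each array in turn included. With 1 probe per gene, Nr1d1 and Erdr1 were represented by other probes of theirs, so these 2 had no value. The 8 arrays separated without overlap for 128 probes that were higher (1.08%) and 200 that were lower (1.68%). Across all probes the median log2 difference was -0.003 and the median residual SD was 0.0951. Every gene described below missed the adjusted threshold in the comparison of GMA-SS with sham, so its values describe these 8 arrays, and words such as higher and lower are not calls.

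**Figure D1:**
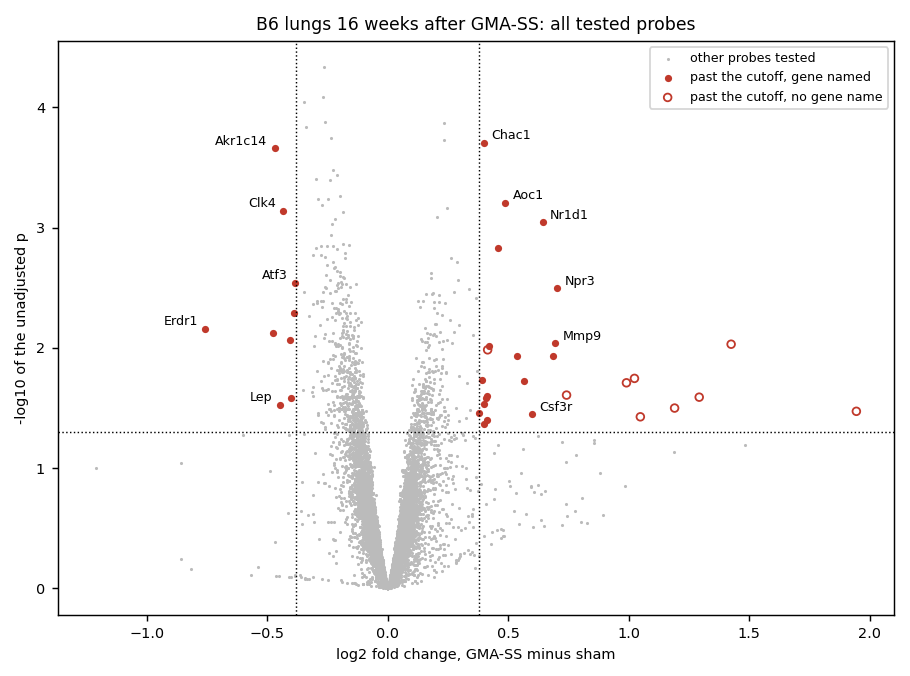
Log2 fold change of GMA-SS over sham (x axis) against -log10 of the unadjusted p (y axis) for the 11881 probes tested in B6 lungs at 16 weeks. Dotted lines mark 1.3 fold and an unadjusted p of 0.05, and filled circles are the named probes past both, open circles the 9 without a gene name, which include the largest positive differences.

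Genes of neutrophils were the list with the highest median. Of 32 genes on the list 17 were tested, and 16 of these were higher in GMA-SS lungs with a median log2 difference of 0.457, beside -0.003 over all probes. Past the cutoff were 4 of the 17 (Mmp9, Clec4d, Csf3r and Cxcr2), and 2 of the 17 separated the groups without overlap (Mmp9 and Lcn2). Over all probes, 48.2% were higher, and 1.08% were higher without overlap. Past the cutoff were 0.227% of all probes in the higher and 0.0758% in the lower direction. These shares also stand beside the counts of the lists below. Mmp9, the gelatinase of neutrophil granules, lay at 10.12, 10.97, 10.73 and 10.04 in GMA-SS lungs, against 9.56, 10.00, 9.98 and 9.54 in sham lungs. All 4 GMA-SS arrays were above all 4 sham arrays, and the difference was 1.62 fold (log2 0.69, SE 0.24, adjusted p = 0.569). Clec4d, a lectin receptor of myeloid cells, was 8.55, 9.66, 9.51 and 8.50 in GMA-SS lungs and 8.13, 8.55, 8.58 and 8.22 in sham lungs (log2 difference 0.68, SE 0.24, adjusted p = 0.622). Here the groups overlapped, because GMA-SS arrays 1 and 4 stood within the sham range while arrays 2 and 3 stood above it. Whether there were more neutrophils in these lungs or more of each mRNA per neutrophil cannot be told apart in whole lung RNA.

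The receptors had the same shape. Csf3r, the receptor for granulocyte colony-stimulating factor, was 9.03, 9.87, 10.15 and 8.86 in GMA-SS lungs, against 8.56, 8.62, 9.51 and 8.83 in sham lungs (log2 difference 0.60, SE 0.26, adjusted p = 0.673). Cxcr2, which guides neutrophils along CXC chemokine gradients, was 8.06, 8.59, 9.06 and 7.91 in GMA-SS lungs and 7.73, 7.64, 8.25 and 7.85 in sham lungs (log2 difference 0.54, SE 0.19, adjusted p = 0.622). For both genes the sham array of beadchip 3 was the highest of its group and reached above the lowest GMA-SS arrays. The calprotectin genes S100a8 and S100a9 had larger differences and larger errors. S100a8 was 13.10, 14.10, 14.07 and 12.66 in GMA-SS lungs and 12.16, 13.01, 13.34 and 12.53 in sham lungs (1.65 fold, log2 0.72, SE 0.36, adjusted p = 0.724). S100a9 was 12.65, 13.71, 13.64 and 12.14 in GMA-SS lungs and 11.56, 12.26, 12.99 and 11.91 in sham lungs (1.81 fold, log2 0.85, SE 0.42, adjusted p = 0.724). Each was higher in GMA-SS on every beadchip, and arrays 2 and 3 were again the high ones.

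Retnlg, a resistin-like gene of myeloid cells, spread widely, at 9.19, 10.50, 11.53 and 8.88 in GMA-SS lungs against 8.36, 9.34, 9.96 and 9.03 in sham lungs (log2 difference 0.86, SE 0.43, adjusted p = 0.724). The cytokine Il1b was 9.59, 10.53, 10.79 and 9.43 in GMA-SS lungs and 9.03, 9.68, 10.40 and 9.20 in sham lungs (log2 difference 0.51, SE 0.33, adjusted p = 0.833). Lcn2, a siderophore-binding protein of neutrophils and airway epithelium, was 12.12, 12.11, 12.90 and 12.40 in GMA-SS lungs and 11.81, 11.92, 11.93 and 12.04 in sham lungs (log2 difference 0.46, SE 0.23, adjusted p = 0.725). Lcn2 separated the groups, unlike Retnlg and Il1b, and its highest array was number 3. The secreted glycoprotein gene Lrg1 was 12.48, 12.71, 13.10 and 12.72 in GMA-SS lungs and 12.15, 12.39, 12.57 and 12.60 in sham lungs (log2 difference 0.33, SE 0.15, adjusted p = 0.678). Ltf, the lactoferrin gene, which lung epithelium also makes, was the member that was not higher (log2 difference -0.04). Clec4e and Camp, named after their values were seen, also lay near sham, at 0.05 and 0.09. Other members of the list, such as Mpo, Elane and Mmp8, were not tested.

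GMA-SS arrays 2 and 3 stood apart for the neutrophil genes. They were the 2 highest of the 4 GMA-SS arrays for 13 of the 17 genes, and array 3 was the highest for 12. The mean of GMA-SS arrays 1 and 4 was above the mean of all 4 sham arrays for 12 of the 17 genes, with a median difference of 0.0766. That comparison sets the pairing by beadchip aside, and sham arrays 2 and 3 were also the high ones of their group. By beadchip, the median level of the list was 10.12, 10.53, 10.79 and 10.04 in GMA-SS lungs. In sham lungs it was 9.56, 10, 10.4 and 9.54, lower than GMA-SS on every beadchip. With arrays 2 and 3 both left out, an alternative chosen after the data were seen, the fitted median of the 17 genes was 0.108, and with array 3 alone left out it was 0.249. Array 3 was the lung with little squamous and muscle RNA. With the mean log2 level of the squamous genes of each array as a covariate the median was 0.448, against 0.457 without it. The squamous genes themselves differed by a median of -0.0863 between the groups, so this covariate could move the comparison little whatever array 3 held. Whether the tissue content of array 3 bears on the neutrophil genes was not tested. Without S100a8 and S100a9 the median of the neutrophil list was 0.327. Both alternatives were chosen after the data were seen. In GMA-MS lungs, which were set against the same sham arrays, the median of the list was 0.402. GMA-MS array 4 was the highest of its group for 14 of the 17 genes. Its summed level was 16.05, against 15.22 to 15.62 on the other 3 arrays. Without it, an alternative chosen after the data were seen, the median difference from the mean of all 4 sham arrays was 0.201. In A/J lungs after GMA-SS, set against A/J sham, the median was 0.0605.

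**Figure D2:**
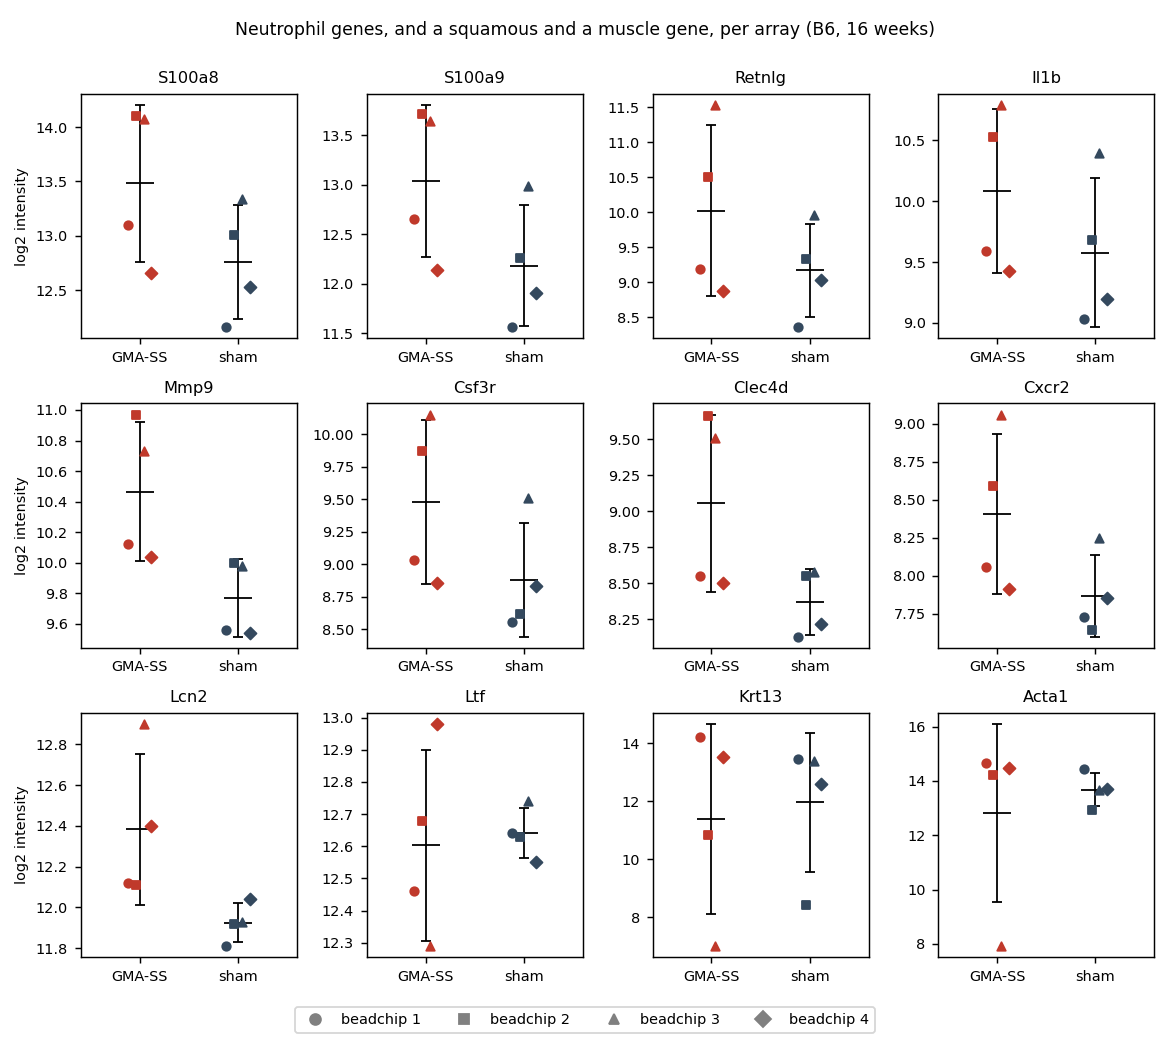
Log2 intensity (y axis) of 10 neutrophil genes, the squamous keratin Krt13 and the muscle actin Acta1 in each GMA-SS and sham array of B6 lungs at 16 weeks; symbols are beadchips, lines the mean and bars 1 SD of 4 arrays. GMA-SS arrays 2 and 3 are high for S100a8 (14.10 and 14.07), and array 3 is low for Krt13 (7.01) and Acta1 (7.92).

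Of 25 chemokine genes tested, 19 were higher in GMA-SS lungs and 6 lower, with a median log2 difference of 0.0458, and 3 were past the cutoff. These were Ccl12, a ligand of the monocyte receptor Ccr2, Ccl6, made by mouse macrophages, and Ccl17, a ligand of Ccr4 on T cells. Ccl12 was 8.65, 8.70, 8.91 and 8.52 in GMA-SS lungs and 8.03, 8.62, 8.05 and 7.82 in sham lungs (1.48 fold, log2 0.57, SE 0.22, adjusted p = 0.658). The sham array of beadchip 2 overlapped the GMA-SS arrays, and the other 3 sham arrays lay below all of them. Ccl6 was 9.37, 9.64, 9.84 and 9.46 in GMA-SS lungs and 9.01, 9.39, 9.16 and 9.13 in sham lungs (log2 difference 0.40, SE 0.17, adjusted p = 0.673). Ccl17 was 8.69, 8.63, 9.29 and 8.54 in GMA-SS lungs and 8.23, 8.61, 8.38 and 8.28 in sham lungs (log2 difference 0.41, SE 0.17, adjusted p = 0.665), with array 3 as the high one. Of the other Ccr2 ligands, Ccl7 differed by 0.20 (adjusted p = 0.81), and Ccl2 was detected on 0 of 4 arrays in each group and was not tested.

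Macrophage genes showed small differences. Of 21 tested, 15 were higher in GMA-SS lungs and 6 lower (median 0.0711), and Gpnmb alone was past the cutoff. Gpnmb, a membrane glycoprotein of lysosome-rich macrophages, was 11.16, 11.20, 11.15 and 11.41 in GMA-SS lungs, against 10.91, 11, 10.63 and 10.81 in sham lungs. The groups did not overlap, and the difference was 1.31 fold (log2 0.39, SE 0.15, adjusted p = 0.656). Lyz2, the lysozyme gene, and Ctsb, a lysosomal protease, differed by -0.01 and 0.05 on the log2 scale. Mmp12, the macrophage metalloelastase, was 8.37, 8.19, 8.0 and 8.52 in GMA-SS lungs and 8.37, 8.03, 8.06 and 8.12 in sham lungs (log2 difference 0.13, SE 0.24, upper 95% limit 0.63).

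Retnla, a resistin-like gene of type 2 responses, was 11.68, 11.49, 11.42 and 11.57 in GMA-SS lungs, against 11.15, 11.22, 10.85 and 11.29 in sham lungs. It separated the groups (1.33 fold, log2 0.41, SE 0.17, adjusted p = 0.665), but of the 7 type 2 mucosal genes tested 3 were higher and 4 lower. Its relative Retnlb was detected on 0 of 4 arrays in each group and was not tested. Genes of metal and oxidant handling lay close to sham: of 22 genes for metallothionein and iron handling 15 were higher and none past the cutoff (median 0.0423), and of 18 NRF2 target genes 15 were higher and none past the cutoff (median 0.0497). Hmox1, the heme-degrading enzyme, was 10.62, 10.49, 10.70 and 10.63 in GMA-SS lungs and 10.44, 10.44, 10.45 and 10.42 in sham lungs (log2 difference 0.17, SE 0.08, adjusted p = 0.673). Mt1, a metal-binding metallothionein, was 13.37, 13.42, 13.57 and 13.43 in GMA-SS lungs and 13.26, 13.22, 13.16 and 13.28 in sham lungs (log2 difference 0.21, adjusted p = 0.751). Both genes separated the groups without overlap at these small differences, while the ferritin genes Ftl1 and Fth1 differed by 0.01 and 0.05.

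Several genes past the cutoff lay outside these groups. Npr3, which clears natriuretic peptides from the circulation, was 9.22, 9.57, 10.21 and 9.16 in GMA-SS lungs and 8.87, 9.36, 8.71 and 8.41 in sham lungs (1.63 fold, log2 0.70, SE 0.21, adjusted p = 0.52). Array 3 was the highest and the groups overlapped through sham array 2. Aoc1, the histamine-degrading diamine oxidase, was 10.14, 9.94, 10.36 and 10.06 in GMA-SS lungs, against 9.68, 9.76, 9.31 and 9.79 in sham lungs, with no overlap (1.40 fold, log2 0.49, SE 0.12, adjusted p = 0.401). 1700007K13Rik was 10.10, 10.69, 10.25 and 10.36 in GMA-SS lungs and 9.57, 10.19, 9.80 and 10.00 in sham lungs (1.37 fold, log2 0.46, SE 0.12, adjusted p = 0.511). It was higher in GMA-SS on every beadchip although the groups overlapped, because both arrays of beadchip 2 were high. Depp1, a target of FOXO transcription factors, was 10.74, 11.20, 10.77 and 10.80 in GMA-SS lungs and 10.29, 10.38, 10.55 and 10.62 in sham lungs, with no overlap (log2 difference 0.42, SE 0.15, adjusted p = 0.569). The remaining named genes past the cutoff and higher were Chac1, Slc2a6, Slfn1 and Csrp3, named after their values were seen. Chac1, which breaks down glutathione, was 9.07, 9.31, 9.12 and 8.91 in GMA-SS lungs and 8.84, 8.80, 8.47 and 8.70 in sham lungs, with no overlap (log2 difference 0.40, SE 0.09, adjusted p = 0.259). Slc2a6, a sugar transporter of phagocytes, was 8.88, 9.47, 9.56 and 9.13 in GMA-SS lungs and 8.67, 8.91, 9.14 and 8.79 in sham lungs (log2 difference 0.38, SE 0.17). Slfn1, a schlafen gene of lymphoid and myeloid cells, was 8.37, 9.08, 9.14 and 8.41 in GMA-SS lungs and 8.14, 8.30, 8.73 and 8.23 in sham lungs (log2 difference 0.40, SE 0.18). Both were highest on GMA-SS arrays 2 and 3, the arrays that were high for the neutrophil genes. Csrp3, a LIM protein of striated muscle, was 11.38, 10.78, 11.47 and 11.28 in GMA-SS lungs and 10.86, 10.68, 10.86 and 10.87 in sham lungs (log2 difference 0.41, SE 0.19), while of the 11 cardiac muscle genes tested 6 were higher and 5 lower (median 0.0186).

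All 9 probes that were lower past the cutoff had a gene name. Akr1c14, a hydroxysteroid dehydrogenase, was 9.54, 9.87, 8.99 and 9.52 in GMA-SS lungs and 10.04, 10.00, 9.84 and 9.91 in sham lungs (0.72 fold, log2 -0.47, SE 0.10, adjusted p = 0.259). Array 3 was the lowest, and array 2 alone reached into the sham range. St8sia4, which adds polysialic acid to cell surface proteins, was 10.02, 10.06, 9.54 and 9.89 in GMA-SS lungs and 10.31, 10.34, 10.14 and 10.28 in sham lungs, with no overlap (0.76 fold, log2 -0.39, SE 0.12, adjusted p = 0.53). Dusp8, a phosphatase of stress-activated kinases, was 9.91, 9.58, 9.87 and 9.74 in GMA-SS lungs and 10.20, 10.40, 10.36 and 9.75 in sham lungs (0.76 fold, log2 -0.40, SE 0.14, adjusted p = 0.569). Dnajb1, a heat shock co-chaperone, was 12.66, 12.46, 12.81 and 12.65 in GMA-SS lungs and 13.55, 13.22, 12.73 and 12.99 in sham lungs (0.72 fold, log2 -0.48, SE 0.16, adjusted p = 0.569). Of the 12 heat shock genes tested 8 were higher and 4 lower, and Dnajb1 was the one past the cutoff. Erdr1 and Clk4, both named after their values were seen, made up the rest with Ccn1, Atf3 and Lep, given below. Erdr1 was 8.16, 8.72, 7.44 and 8.65 in GMA-SS lungs and 9.47, 8.68, 9.11 and 8.75 in sham lungs (log2 difference -0.76, SE 0.25, adjusted p = 0.569), with array 3 the lowest, and its other tested probe, not past the cutoff, differed by -0.86 (SE 0.48). Clk4, a kinase of splicing factors, was 10.05, 9.99, 10.43 and 10.13 in GMA-SS lungs and 10.76, 10.71, 10.42 and 10.45 in sham lungs (log2 difference -0.43, SE 0.11, adjusted p = 0.401). Its relative Clk1, just short of 1.3 fold, was 10.99, 10.76, 11.24 and 10.94 in GMA-SS lungs and 11.36, 11.41, 11.31 and 11.23 in sham lungs (log2 difference -0.35, SE 0.07, adjusted p = 0.259). For both kinases the GMA-SS array of beadchip 3 was the highest of its group and alone reached the sham range.

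Immediate early genes, which are transcribed within minutes of growth factor or stress signals, leaned the other way from the neutrophil list. Of 28 genes 20 were tested, 16 were lower in GMA-SS lungs and 4 higher, the median log2 difference was -0.193, and Ccn1 and Atf3 were past the cutoff. The median in GMA-MS lungs, set against the same sham arrays, was -0.136. Egr1, a zinc finger transcription factor, was 11.12, 11.57, 10.60 and 11.38 in GMA-SS lungs and 11.22, 12.28, 12.39 and 11.18 in sham lungs (0.66 fold, log2 -0.60, SE 0.29, adjusted p = 0.71). Sham arrays 2 and 3 were high and sham arrays 1 and 4 lay among the GMA-SS arrays. Ccn1, a matrix-associated signalling protein, was 8.51, 9.04, 8.11 and 8.79 in GMA-SS lungs and 8.74, 9.46, 9.13 and 8.71 in sham lungs (0.76 fold, log2 -0.40, SE 0.17, adjusted p = 0.665). Atf3, a stress-induced transcription factor, was not above background on any GMA-SS array and was detected on 3 of 4 sham arrays. Its mean was 7.5 in GMA-SS and 7.88 in sham lungs, a measured ratio of 1.3 fold (adjusted p = 0.52). The GMA-SS mean is a signal below background, so this ratio is not a bound on the difference, and it does not cover the spread between arrays. An unadjusted p under 0.05 was reached by 9 of the 20 in the lower direction, where 534 of all probes (4.49%) did so, and by 1 in the higher, where 295 (2.48%) did so. Klf2, a transcription factor of endothelium and lymphocytes, was among the lower at -0.30, the growth arrest gene Gadd45b was the higher one at 0.29, and Fos, a subunit of AP-1, differed by -0.21.

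Fat genes had the lowest median of the lists. Of 9 adipose genes tested 7 were lower and 2 higher (median -0.307). In GMA-MS lungs, set against the same sham arrays, the median of these genes was -0.261. Lep, the leptin gene, was past the cutoff at log2 -0.45 (adjusted p = 0.673), detected on 1 of 4 GMA-SS and 3 of 4 sham arrays. Ucp1, not past the cutoff and named after its value was seen, had the largest difference of any tested probe with a gene name. Its log2 difference was -1.21, and -1.89 to -0.57 with 1 array left out. Adipoq, which marks adipocytes, was 10.63, 10.90, 10.81 and 10.82 in GMA-SS lungs, against 11.10, 11.23, 11.69 and 11.09 in sham lungs (log2 difference -0.49, SE 0.29, adjusted p = 0.81), with no overlap. The summed adipose signal of an array was 15.19 to 15.30 in GMA-SS lungs and 15.25 to 15.44 in sham lungs, and how much fat a sample held was not tested. Among lung endothelial genes 9 of 19 were higher and 10 lower, with a median of -0.001. Emcn, a sialomucin of capillary and venous endothelium, was 12.73, 12.55, 12.56 and 12.58 in GMA-SS lungs and 13.04, 12.83, 12.83 and 12.82 in sham lungs. It separated the groups by 0.83 fold (log2 -0.28, SE 0.07, adjusted p = 0.511), while the endothelial genes Ramp2 and Cldn5 differed by 0.05 and 0.07. The other members with an unadjusted p under 0.05 were split, 3 lower (Cd34, Sox17 and Ednrb, at -0.16, -0.22 and -0.17) and 1 higher (Sox18, at 0.23), named after their values were seen. Of 16 epithelial genes 11 were higher and 5 lower, none was past the cutoff, and the median was 0.0123. Collagen and matrix genes were balanced, 13 of 26 higher and 13 lower, with Mmp9 as the member past the cutoff and Col1a1, the main fibrillar collagen, at 0.02.

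**Figure D3:**
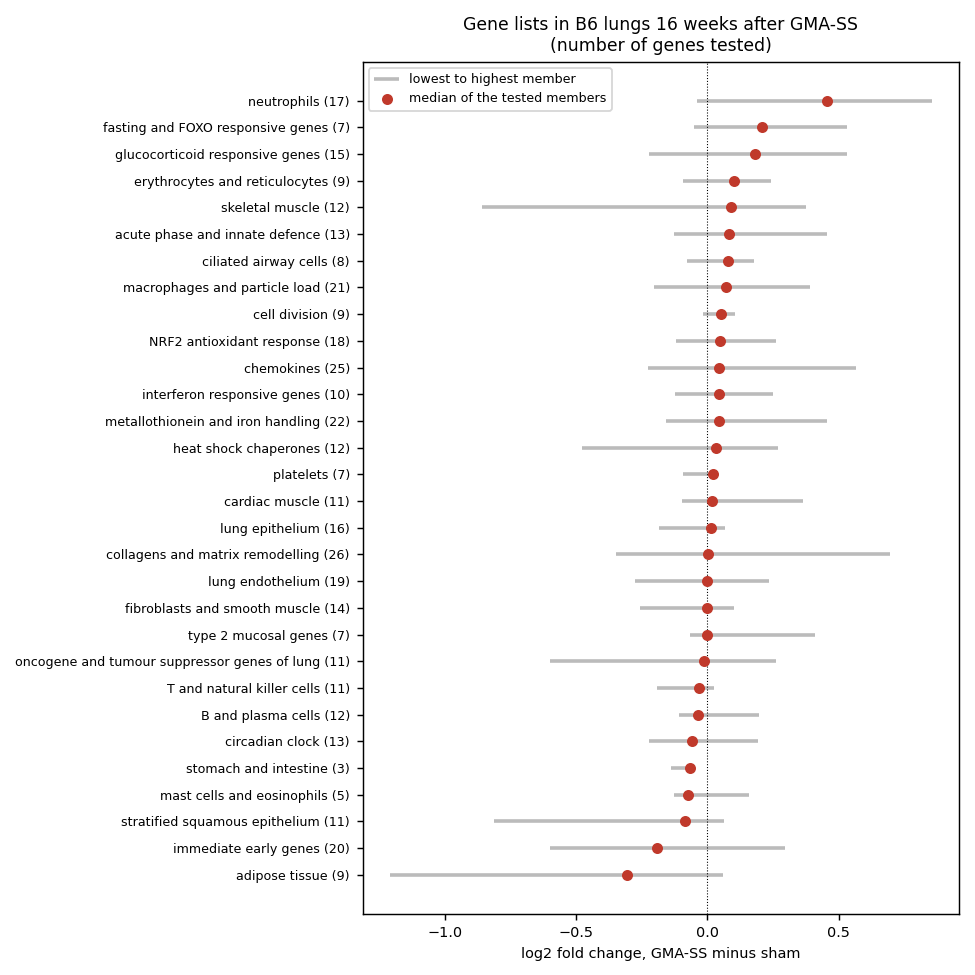
Log2 fold change of GMA-SS over sham (x axis) for 30 gene lists in B6 lungs at 16 weeks, with the number of genes tested; circles are list medians and bars reach from the lowest to the highest member. Neutrophils have the highest median (0.457) and adipose tissue the lowest (-0.307), and no gene of any list passed the adjusted threshold.

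Nr1d1, the heme-binding repressor that closes a loop of the circadian clock, was 8.43, 8.60, 8.94 and 8.10 in GMA-SS lungs, against 8.08, 8.06, 7.63 and 7.74 in sham lungs. The groups did not overlap (1.56 fold, log2 0.64, SE 0.16, adjusted p = 0.4284). The second probe of the gene differed by 0.34 (adjusted p = 0.52) and the third by 0.07 (adjusted p = 0.936). The clock list lay near sham: of 13 genes tested 4 were higher and 9 lower (median -0.0585), with Nr1d1 entered by its probe of highest signal, which is the third. Dbp, a clock output factor, was 8.97, 9.05, 8.95 and 8.98 in GMA-SS lungs and 8.80, 8.83, 8.70 and 8.87 in sham lungs (log2 difference 0.19, SE 0.10, adjusted p = 0.724), with no overlap. Per2, a repressor of the clock, was 10.56, 10.80, 10.23 and 10.59 in GMA-SS lungs and 10.78, 11.17, 10.37 and 10.65 in sham lungs (log2 difference -0.20, adjusted p = 0.869). The hour at which lungs were taken is not given in the sources used here.

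The GMA-SS and GMA-MS lungs were compared directly, each having 4 arrays on the same beadchips and the same sham arrays as control. Between the fumes 19 probes (0.160%) passed the adjusted threshold, 17 of them higher in GMA-SS (0.143%) and 2 lower (0.0168%). Dbp was the larger of the 2 lower, at 8.97, 9.05, 8.95 and 8.98 in GMA-SS lungs and 9.19, 10.11, 9.38 and 9.69 in GMA-MS lungs (log2 difference -0.60, SE 0.10, adjusted p = 0.00757). The other was H2-Ob, a class II antigen-processing gene (-0.33, adjusted p = 0.0420), named after its value was seen. By the first probe given above, Nr1d1 was lower in GMA-SS than in GMA-MS lungs by 0.66 without passing the threshold (adjusted p = 0.176). Its GMA-MS arrays were at 9.04, 9.29, 9.04 and 9.34. Per2 was higher by 0.61, also not passing (adjusted p = 0.196), with GMA-MS arrays between 9.89 and 9.98. For Dbp, Nr1d1 and Per2 alike, the mean GMA-SS level lay between the GMA-MS and the sham level.

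The 17 probes that were higher in GMA-SS than in GMA-MS lungs had another shape. In all 17 the 4 GMA-MS arrays lay below all 8 GMA-SS and sham arrays. For 4 of the 17, all 12 A/J arrays, sham included, also lay below these 8. Across the 17, GMA-SS differed from sham by less than 0.1 on the log2 scale. Their differences were 0.169 to 0.678. With any 1 of the 8 fume arrays left out, 7 to 12 probes passed between the fumes, and with only these 2 groups in the fit 0 passed. Zfp661, a zinc finger gene, was 8.94, 9.05, 9.16 and 9.07 in GMA-SS lungs and 8.33, 8.42, 8.44 and 8.33 in GMA-MS lungs, with sham at 8.86 to 9.10 (log2 difference 0.68, SE 0.08, adjusted p = 0.000264). Gdpd4 (0.41, SE 0.05, adjusted p = 0.000243) and Nr5a1, a regulator of steroid hormone synthesis (0.36, SE 0.04, adjusted p = 0.000505), followed. Of the 6 probes with the largest differences, 2 others were not above background in GMA-MS lungs. The sperm protamine gene Prm2 was detected on only 1 of 4 GMA-SS arrays as well, at a mean of 7.66, so no fold is given. An unnamed probe (ILMN_3161278) was detected on all 4 GMA-SS arrays. Its measured ratio of 1.40 fold rests on GMA-MS signal below background and is not a bound. Of the 17, 14 had a mean below 8 in GMA-SS lungs, near background, and 10 were detected on no GMA-MS array. These 10 met the detection filter through other groups, among them GMA-SS and sham, where they were high. A filter of this kind can favour their shape. When only probes detected on all 4 arrays of both fume groups were tested, an alternative chosen after the data were seen, 3 passed (Zfp661, Nr5a1 and Dbp). GMA-MS lay at 1 position on every beadchip, as GMA-SS did at another, so fume and position cannot be told apart.

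**Figure D4:**
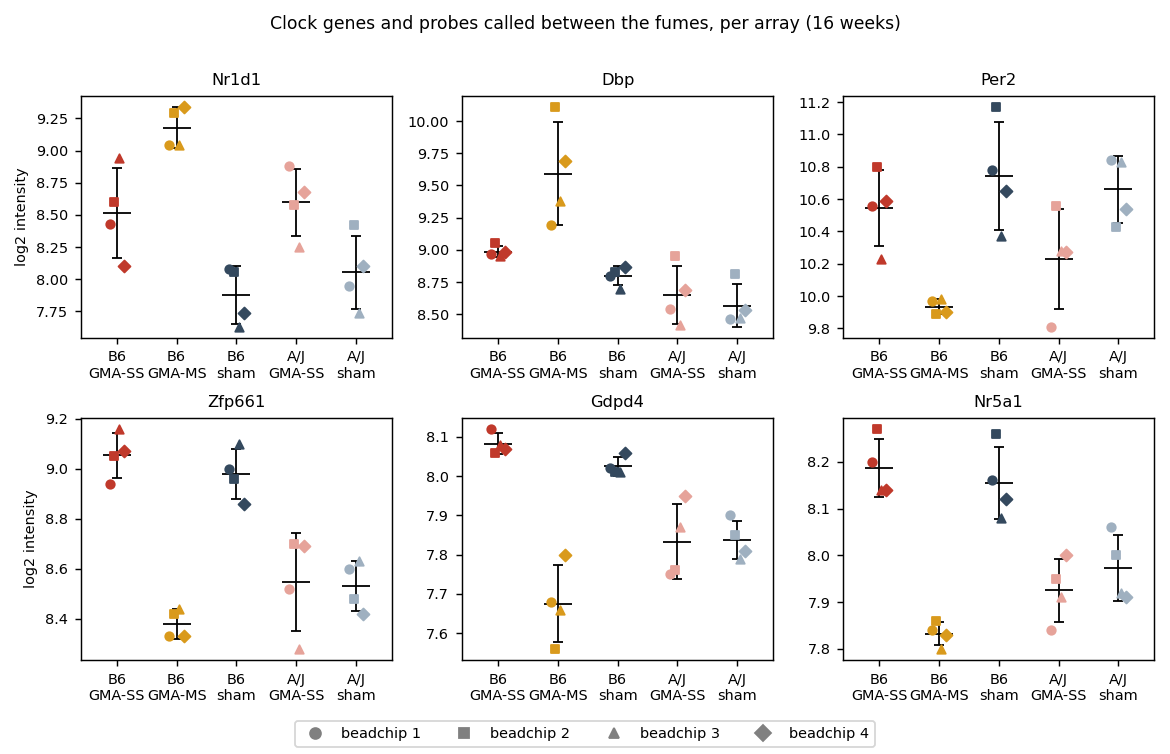
Log2 intensity (y axis) of 3 clock genes and 3 probes called between the fumes in the B6 and A/J arrays at 16 weeks; symbols are beadchips, lines the mean and bars 1 SD of 4 arrays. B6 GMA-SS lies between GMA-MS and sham for Nr1d1 (the probe past the cutoff), Dbp and Per2, and beside sham for Zfp661, Gdpd4 and Nr5a1.

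The strain comparison asked whether GMA-SS acted differently in B6 and in A/J lungs, each against sham of its own strain. The difference of the 2 effects passed the adjusted threshold for 4 probes (0.0337%), all without a gene name and all with the smaller effect in B6. The first, ILMN_1233413, had a GMA-SS effect of 0.01 in B6 and 2.42 in A/J lungs (difference -2.41, SE 0.34, adjusted p = 0.00592). ILMN_2451103 had effects of 0.03 in B6 and 2.44 in A/J lungs. Its array levels ran close to those of ILMN_1233413, so these need not be separate differences. ILMN_2433719 and ILMN_2664963 were not above background on any B6 GMA-SS or sham array, so no B6 effect is given, and their effects in A/J lungs were 2.15 and 2.24. Without GMA-SS array 4 of B6, 7 probes passed. Against sham, 0 probes passed in B6 and 53 (0.446%) in A/J lungs. The strain difference of no named gene passed. Mmp12, for instance, had an effect of 0.13 in B6 and 1.65 in A/J lungs (adjusted p = 0.0018 in A/J).

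The 4-week lungs allowed the GMA-SS effect to be followed back, with all 48 arrays normalized together. The difference between the 16-week and the 4-week effect passed the adjusted threshold for 0 of 12223 probes (0%), with 1004 at an unadjusted p under 0.05 (8.21%). Mmp9 was 9.31, 9.03, 8.89 and 9.03 in GMA-SS lungs at 4 weeks and 10.28, 9.0, 9.43 and 9.78 in sham lungs at 4 weeks, so that 3 of the 4 sham arrays stood above all 4 GMA-SS arrays. Its effect was 0.70 at 16 and -0.56 at 4 weeks, a difference of 1.26 (SE 0.30, adjusted p = 0.4529). Of the 17 neutrophil genes, 16 were above 0 at 16 weeks, and at 4 weeks 12 were below 0 and 5 above. Among the 12 were S100a8 (0.74 at 16 and -0.83 at 4 weeks), Csf3r (0.60 at 16 and -0.58 at 4 weeks) and Il1b (0.51 at 16 and -0.97 at 4 weeks), and Clec4d lay near 0 at 4 weeks (0.70 at 16 and -0.02 at 4 weeks). The 5 others included Lcn2 (0.47 at 16 and 0.51 at 4 weeks) and Lrg1 (0.33 at 16 and 0.10 at 4 weeks). Sham array 1 of 4 weeks was the highest of its group for S100a8 (13.66, the others 12.08 to 12.69), Csf3r (9.85, the others 8.79 to 9.31) and Il1b (10.55, the others 9.42 to 9.66). This array enlarged the negative effects at 4 weeks, and arrays of 4 weeks were not left out in turn. The median of the list was 0.468 at 16 and -0.150 at 4 weeks in this normalization, and the difference of the medians was not tested.

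Against sham of 4 weeks, 13 probes passed the adjusted threshold (0.106%), and macrophage and immediate early genes were among them. Mmp12 was 9.32, 8.83, 8.76 and 8.93 in GMA-SS lungs at 4 weeks and 7.79 to 7.82 in sham lungs, an effect of 1.16 (adjusted p = 0.0074), against 0.14 at 16 weeks. Gpnmb was 0.40 at 16 and 0.70 at 4 weeks (adjusted p = 0.0479 at 4 weeks). Ccn1 was -0.41 at 16 and -1.31 at 4 weeks (adjusted p = 0.0002 at 4 weeks), and Egr1 -0.61 at 16 and -1.54 at 4 weeks (adjusted p = 0.0023 at 4 weeks). Egr1 stood at 10.86 to 11.23 in GMA-SS lungs at 4 weeks, against 12.18 to 13.13 in sham lungs at 4 weeks, with no overlap. Emcn was lower at 16 weeks (-0.28) and higher at 4 weeks (0.20), a difference of -0.48 (SE 0.09, adjusted p = 0.1056). Time points lay on different beadchips, and each effect was formed within its own.

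**Figure D5:**
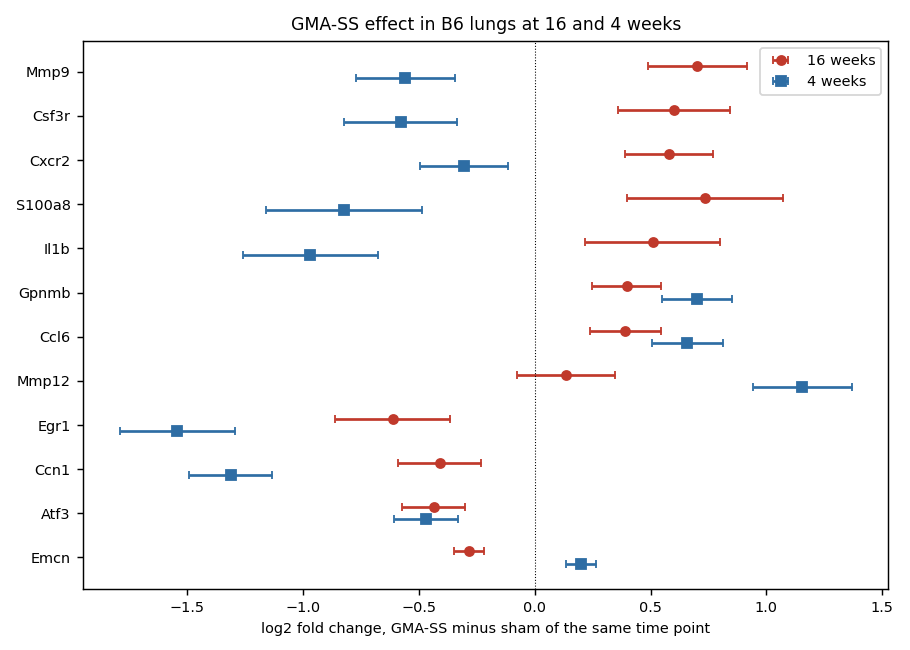
Log2 fold change of GMA-SS over sham of the same time point (x axis) at 16 and 4 weeks for 12 genes of B6 lungs; bars are 1 standard error. The 5 neutrophil genes plotted (Mmp9, Csf3r, Cxcr2, S100a8 and Il1b) are above 0 at 16 weeks and below 0 at 4 weeks, as 12 of the 17 on the list were, and Egr1 and Ccn1 are below 0 at both.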

How the data were processed

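Mouse lung RNA was hybridized to MouseRef-8 v1.1 beadchips. The deposited table holds the mean probe intensity over beads and a detection p-value per array, which the authors exported from BeadStudio without normalization. Its columns of signal spread and coverage, deposited in the same way, are the bead standard error and the number of beads per probe (34 to 36 on average). The deposited log2 value table, made by the authors with lumi (force-positive background, variance stabilization, robust spline), served as an alternative.

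Intensities were corrected with normexp on the detection p-values (neqc, offset 16), quantile-normalized and log2-transformed over the 24 arrays of 16 weeks, or over 48 for the time comparison, with limma 3.58.1 in R 4.3.3. Probes with a detection p under 0.01 on at least 4 arrays were tested, in 1 model of all groups with the beadchip as block and Benjamini-Hochberg adjustment (0.05) over all probes. The replicate numbers pair the arrays because the labels give 1 beadchip for each number. Deviations of arrays of 1 beadchip correlated at 0.0495 to 0.203 on average, those of different beadchips at -0.0407. For the B6 GMA-SS and sham arrays compared here, the correlation was 0.62, 0.567, -0.0343 and -0.0717 on beadchips 1 to 4. The highest correlation of any 2 arrays was 0.9958.

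Gene names came from the platform annotation updated by Entrez identifier or accession (20984 of 24613 probes with 1 gene, 3628 unnamed). In the lists a gene stands for its tested probe of highest signal. In the descriptions of single genes it does so too, except that a gene past the cutoff stands for the probe that passed it. For Nr1d1 and Erdr1 that was not the probe of highest signal. Named were genes the study names for this comparison, the 12 largest of each direction past 1.3 fold and unadjusted p under 0.05 with 1 direction on all 4 beadchips, list members past that cutoff, up to 3 of highest signal per list, and up to 6 called probes per difference; other names were added after their values were seen. The members and the 30 lists were chosen with earlier results of these data known, so lists were described and not tested. For a probe below background in 1 group the ratio given is the measured one. The lowest detected signal of an array gave no bound, because probes that were not detected could lie above it. The fits were tested on simulated data. Figures used Python 3.11.15 and matplotlib 3.10.9. With 4 arrays a group, their number limits the precision.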

Additional observations from a re-analysis of the deposited data

Results flagged for a closer look

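Within groups of 4 arrays, 1 array stood far from the other 3 in 6 of 102 groups examined. Among independent groups picked without regard to their values, about 1 in 20, or 5.1, would do so. Most probes examined were picked on these same arrays, so that rate is not their chance expectation. In GMA-SS lungs the values that stood apart were Gpnmb on array 4 (11.41, the others 11.15 to 11.20), Depp1 on array 2 (11.20, the others 10.74 to 10.80) and the unnamed probe ILMN_1229267 on array 3 (11.21, the others 10.32 to 10.42). In sham lungs these were Csrp3 on array 2 (10.68, the others 10.86 to 10.87), the unnamed probe ILMN_2510278 on array 3 (7.97, the others 7.23 to 7.31) and Gdpd4 on array 4 (8.06, the others 8.01 to 8.02).

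The GMA-SS effect differed between the strains by a test of the difference for 4 unnamed probes, ILMN_1233413 (-2.41), ILMN_2451103 (-2.41), ILMN_2433719 (-2.12) and ILMN_2664963 (-2.12), all with the smaller effect in B6. ILMN_2433719 and ILMN_2664963 were not above background on any B6 GMA-SS or sham array, so that for them these differences rest on B6 values without a measured level.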

How the results depend on the processing

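None of the 36 probes past 1.3 fold and unadjusted p under 0.05 between GMA-SS and sham reversed its direction. For the fume, strain and time differences only the counts of calls were followed. GMA-SS against sham gave 0 calls without the beadchip (replicate) block, under every other normalization and filter run, and 0 to 2 when 1 array was left out (2 without GMA-SS array 3, an unnamed probe and Zfp871 at -0.36; 1 without sham array 2, Cfl1 at -0.32). At 1.3 fold and unadjusted p under 0.05 it gave 36 probes, 18 (15 higher, 3 lower) from the deposited log2 values and 17 to 54 with 1 array left out (10 higher and 7 lower without GMA-SS array 3, 39 and 15 without GMA-SS array 4, 14 and 14 without sham array 4). Of the 36, Npr3, Mmp9, Nr1d1 and Erdr1 met that cutoff in each setting that gave them a value (Nr1d1 and Erdr1 had none with 1 probe per gene) and 32 missed it in at least 1.

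The 19 calls between the fumes became 12 without the replicate block, 0 when only the groups compared were fitted, 2 with cyclic loess, 2 with median scaling, 9 with deposited values, 46 with no filter, 7 with detection in all 4 arrays of a compared group, 3 with detection in both fume groups, and 7 to 12 with 1 array left out. The 4 strain calls became 2 with only the groups compared, 2 with cyclic loess, 2 with median scaling and 7 with the group filter. They became 0 with 1 probe per gene, since unnamed probes leave. With 1 B6 array left out they became 3 to 7 (7 without GMA-SS array 4), and no A/J array was left out. The time difference gave 1 call from deposited values. Apart from the setting with 1 probe per gene, the causes were not tested. The neutrophil median kept its sign, at 0.249 without GMA-SS array 3 to 0.510 with 1 array left out. Probes near background limit what can be measured, and their ratios are not bounds.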

Other observations

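Of the 27 probes past 1.3 fold that were higher in GMA-SS lungs, the 9 without a gene name included the largest differences. They need not be separate differences, since ILMN_2465985, ILMN_2674666 and ILMN_2699222 ran alike over the arrays, as did ILMN_2467523 and ILMN_2632261. ILMN_2633179 was 11.71, 10.26, 12.06 and 12.19 in GMA-SS lungs and 10.81, 8.65, 11.28 and 7.70 in sham lungs (log2 difference 1.95). ILMN_1249975 was 9.40, 8.42, 10.55 and 11.17 in GMA-SS lungs and 8.42, 8.19, 9.94 and 7.29 in sham lungs (1.43), and ILMN_2467523 was 10.03, 8.96, 9.58 and 11.04 in GMA-SS lungs and 8.58, 8.90, 9.07 and 8.97 in sham lungs (1.02). In each of these the array of beadchip 4 differed the most between the groups.

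The named gene with the smallest p-value in the fit was Cfl1, the actin-severing cofilin, which was lower in GMA-SS lungs by 0.26 on the log2 scale (SE 0.05, adjusted p = 0.2593). Glucocorticoid responsive genes were higher for 10 of 15 tested (median 0.180) and fasting and FOXO responsive genes for 5 of 7 (median 0.207), with Depp1 past the cutoff.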
